A study of Mus musculus with 46 samples.

Results

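The genes described here encode the nuclear pore complex and the receptors that carry cargo through it. Members were the protein-coding genes whose symbols belong to the numbered nucleoporins, the karyopherins, the importins, exportins and transportins, or the Ran cycle, together with Ndc1, Pom121, Aaas, Tpr and Cse1l. All 52 such genes were present in both deposited tables, one on cell lines (14360 genes) and one on a Max addback experiment (14056 genes), which share 13528 genes. The choice rests on symbol and gene type, but it was made with earlier results of these data known, and only listed genes could enter. Kpna7 and Nup62cl of the mouse annotation also carry a matching symbol and are listed in neither table.

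The nuclear pore is a ring of nucleoporins set in the nuclear envelope. An outer ring (the Y complex) and an inner ring form its scaffold, membrane proteins anchor it, nucleoporins with phenylalanine-glycine repeats fill its channel, and filaments and a basket face the cytoplasm and the nucleus. Transport receptors of the importin beta family bind cargo and cross the channel, importin alpha proteins adapt cargo to importin beta, and the GTPase Ran gives the direction: RCC1 loads Ran with GTP on chromatin, and RANGAP1, helped by RANBP1 and RANBP2, has it hydrolysed outside the nucleus. MYC proteins bind the E-box, CACGTG, as dimers with MAX, and MYC is known for its action on genes of growth and biosynthesis.

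RNA was sequenced from cultured thyroid tumour lines of mice with conditional Rb and p53 mutations, called RP (4 libraries), or with Max mutated as well, called RPM (4 libraries). In these mice a Cre induced with tamoxifen directs the mutations to neuroendocrine cells. In a separate experiment an RPM line was transduced with an empty vector (3 libraries) or with a vector that expresses Max (3 libraries, Max addback), so that both of its groups carry the Rb, p53 and Max mutations. By the library names, that line is the one of RPM replicate 2, and the experiment therefore describes 1 line; whether its libraries come from separate cultures is not given, so its p-values measure only the spread between these libraries. A further 32 libraries, of tumours, are not analysed here, and mouse ages are not among the labels of the cell libraries. Levels are TMM-normalised CPM, that is, read counts scaled to a common library size. Changes are differences in mean log2(CPM + 1), which understates the change of low genes, and a gene was called where limma's Benjamini-Hochberg adjusted p over all listed genes was under 0.05.

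Reads in listed genes numbered 6738614 to 8498396 per library, and 3 reads were worth 0.353 to 0.458 CPM. In the RP lines Max stood at 65.2, 44.7, 50.8 and 57.5 CPM, and in the RPM lines at 80.9, 103, 68.9 and 100.5 CPM, both in order of replicate number. The reads are summed over the whole gene, so they do not show which exons the RPM lines lack, and they check nothing about those labels. With empty vector Max was at 86.3, 83.1 and 96.0 CPM, and with addback at 251, 249.6 and 220.3 CPM, higher by 1.43 ± 0.09 (SE) on the log2 scale (limma adjusted p = 5.75e-07). RPM replicate 1 carries an animal identifier that some tumour libraries labelled Rb/p53 mutant carry too. Addback replicate 3 stood apart from the other addback libraries: chi-square per degree of freedom was 15.5 and 13.2 against these and 1.83 between them. It held the lowest addback value of 39 of the 52 members. C cell and neuroendocrine markers were present in every library (summed level of 11 genes 5083 to 25430 CPM), whereas the immune marker Cd68 stayed at or below 4.33 CPM and the follicular markers Tg and Tshr are in neither table.

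Promoter windows of 300 bases (250 before and 50 after a RefSeq start site, GRCm38.p6) were found for 42 of the 52 members; Cse1l, Nup210l, Nup43, Xpo4, Xpo7, Kpna1, Kpna3, Kpna6, Nup85 and Nup35 had none. The E-box CACGTG, which reads the same on both strands, occurred in the windows of 9 members (21.4%), against 11.8% of the 10781 genes of the addback table with a window and 7.2% of all 32851 windows. Among members with a window it occurred in 5 of the 22 that fell with addback, in 1 of the 3 that rose and in 3 of the 17 that were not called. The variant CACGCG, searched on both strands, differs from the E-box in its letters, so that no 6-base run matches both. It occurred in 28.6% of the members with a window and in 20.2% of the listed genes with one. By call, the variant occurred in 4 of the 22 members that fell with addback, in 1 of the 3 that rose and in 7 of the 17 not called. The stretches around the E-box that follow are from 4 genes that fell with addback (Ipo7, Tnpo2, Ran and Xpot), from Nup93, which rose, and from Nup188, which was not called although it carries a pair of E-boxes; capitals mark the E-box, and each sequence reads 5′ to 3′ on the gene's strand.
Ipo7 (chr7:110018138-110018223, plus strand): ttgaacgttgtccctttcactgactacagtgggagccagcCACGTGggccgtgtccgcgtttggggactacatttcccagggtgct
Tnpo2 (chr8:85036698-85036822, plus strand): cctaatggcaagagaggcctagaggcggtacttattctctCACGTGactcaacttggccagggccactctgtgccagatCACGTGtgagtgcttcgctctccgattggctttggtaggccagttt
Ran (chr5:129019998-129020083, plus strand): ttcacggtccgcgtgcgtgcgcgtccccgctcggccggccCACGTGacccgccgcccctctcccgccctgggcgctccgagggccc
Xpot (chr10:121626518-121626582, minus strand): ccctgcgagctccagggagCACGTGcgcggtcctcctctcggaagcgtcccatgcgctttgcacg
Nup93 (chr8:94214349-94214434, plus strand): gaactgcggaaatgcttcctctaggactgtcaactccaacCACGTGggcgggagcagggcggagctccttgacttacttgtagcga
Nup188 (chr2:30286310-30286415, plus strand): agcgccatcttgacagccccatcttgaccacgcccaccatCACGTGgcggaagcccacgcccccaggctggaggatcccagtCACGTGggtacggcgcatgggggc

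Counted from the start site, the first base of the E-box lay at -137 in Ipo7, at -155 and -116 in Tnpo2, at -118 in Ran, at -231 in Xpot, at -175 in Nup93 and at -66 and -24 in Nup188. The other members with a match were Ipo4 at +15, Nup54 at -100 and Ranbp2 at -87. A match is a run of letters, and binding there was not measured in these data.

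**Figure D1:**
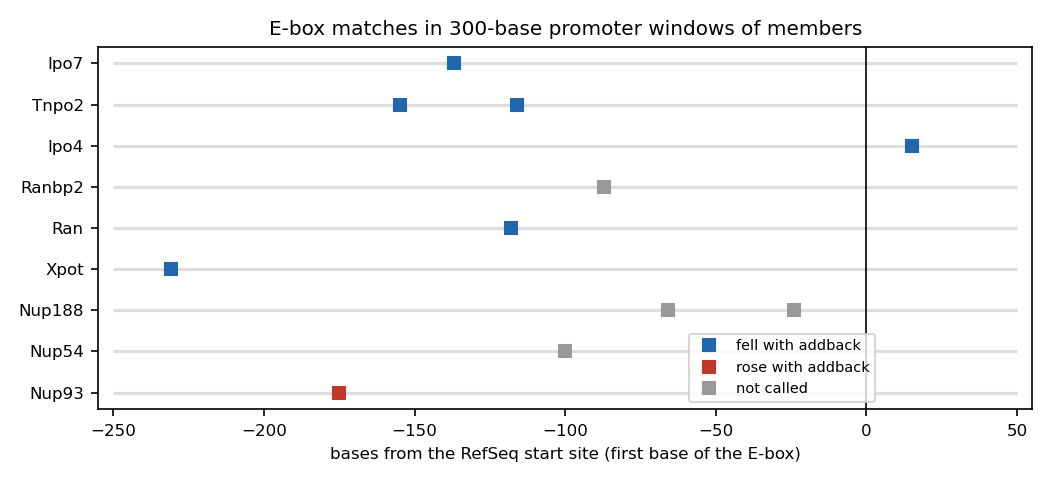
Position of each CACGTG in the promoter windows of the 9 members that hold one, in bases from the RefSeq start site; each grey line is 1 window, blue marks genes that fell with Max addback, red a gene that rose and grey genes not called. All positions but that of Ipo4 lie before the start site, and genes of all 3 kinds carry the motif.

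Levels of different genes were compared per gene length, as RPKM in the RP lines. Ranbp1 had the highest level, 94.4 ± 13.8 RPKM (SD, n = 4), followed by Kpnb1 (importin beta itself) at 82.4 ± 10.1, Rangap1 at 79.2 ± 3.84, Ran at 74.3 ± 11.1, Ipo5 at 67.6 ± 10.2, Ipo9 at 63.6 ± 0.636 and Xpo1 at 62.1 ± 3.68 RPKM. Each differed from the next in this order by less than the larger of their SDs. Rcc1, the fourth gene of the Ran cycle, was lower, at 18.3 ± 5.72 RPKM. At the low end were Kpna2 at 1.94 ± 0.329, Nup35 at 2.20 ± 0.323, Nup210l at 2.47 ± 0.949 and Nup37 at 4.32 ± 1.04 RPKM. For Kpna2 and Nup35 the level is uncertain, because 95.8% and 53.7% of their longest transcripts recur at 95% identity or more in other genes of the annotation. The same held for more than 10% of the longest transcript of 6 further members, namely Ipo4, Nup54, Xpot, Tnpo1, Ran and Ranbp1.

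**Figure D2:**
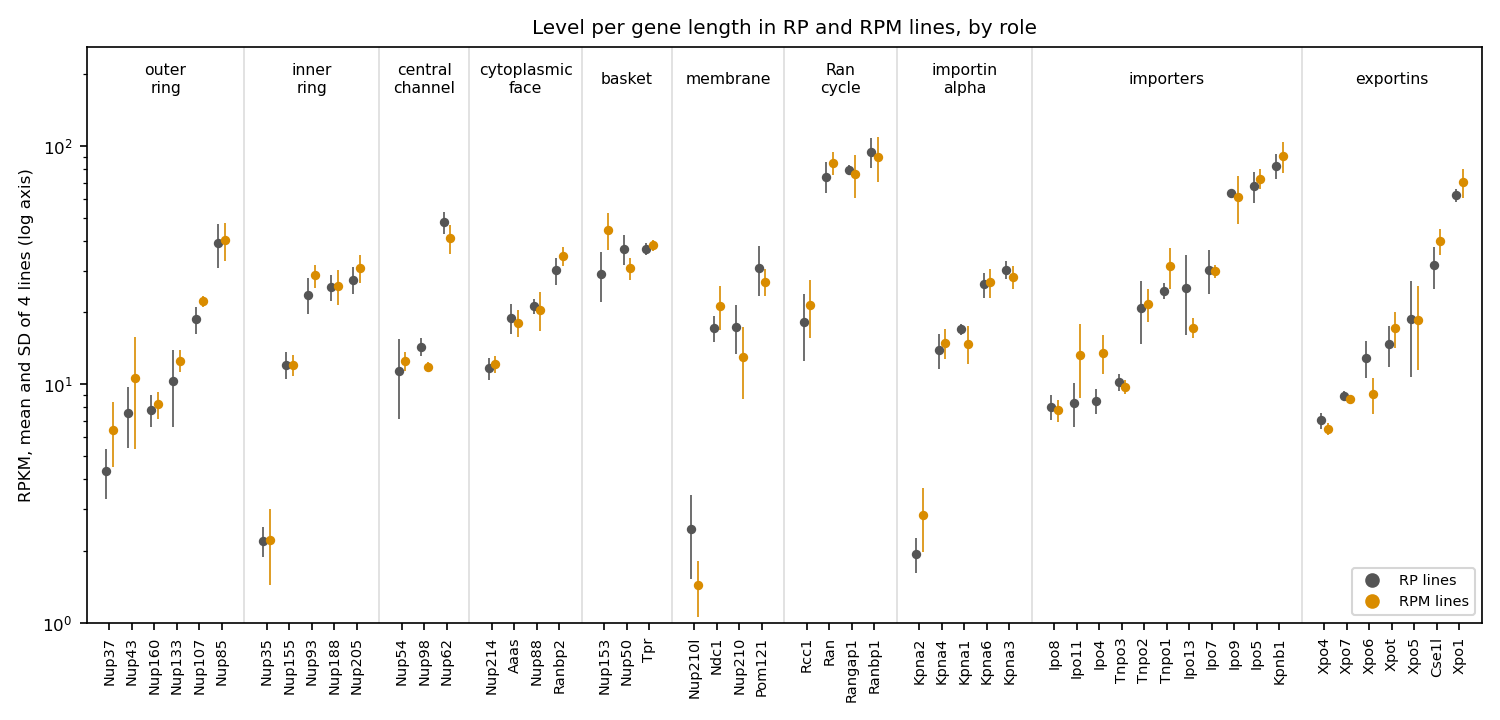
Level per gene length (RPKM, log axis) of the 52 members in the RP lines (grey) and RPM lines (orange); points are means and bars SDs of 4 lines, and genes are ordered within their role by the RP mean. Ran, Rangap1, Ranbp1, Kpnb1, Ipo5, Ipo9 and Xpo1 form the upper end, and Kpna2, Nup35 and Nup210l the lower end.

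Between the RPM and RP lines no member passed the test. Of the 52 members 0 were called by limma (smallest adjusted p = 0.169), against 0.334% of all genes (48 of 14360), of which 0.209% were called higher and 0.125% lower. By unadjusted p, 5 had a value under 0.05, against 15.9% of all genes. edgeR's quasi-likelihood test called 0 members, with 5 at an unadjusted p under 0.05, and 3 of all 14360 genes. DESeq2 called 1 member and 657 of the 14249 genes to which it gave an unadjusted p. The median log2 change of the members was 0.048, beside -0.005 over all genes, and 30 members were above 0. The lines of a group differed widely: the coefficient of variation of a member had a median of 14.6% among RP lines and 14% among RPM lines.

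The member with the smallest p was Ipo4, an importin known to carry histones and ribosomal proteins. It was at 33.1, 44.3, 40.4 and 41.6 CPM in the RP lines and at 49.8, 57.3, 70.8 and 75.8 CPM in the RPM lines, so every RPM line lay above every RP line, as in 4.97% of all genes. The means were 39.8 ± 4.77 and 63.4 ± 12 CPM (SD, n = 4 each; exact two-sided permutation p = 0.0286, the smallest this design can give), and the log2 difference was 0.65 ± 0.17 (SE), with a limma adjusted p of 0.169. DESeq2 gave it an adjusted p of 0.0224. Its count may include reads of Gm49378, a gene on the same strand whose exons cover 55.3% of the exon bases of Ipo4. Nup98, a repeat protein of the channel, was the other member whose groups did not overlap, which in this direction held for 4.39% of all genes and in either for 9.37%. It was at 201, 168, 187 and 170.2 CPM in RP lines and at 141, 157, 152 and 144 CPM in RPM lines, a log2 difference of -0.28 (limma adjusted p = 0.254).

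The other differences of some size did not clear the spread of the lines. Nup153, a basket protein that binds importins and chromatin, was at 204 ± 49.0 and 312 ± 55.7 CPM in RP and RPM lines (log2 difference 0.63, limma adjusted p = 0.229). Ipo11, an importin, was at 54.0 ± 11.3 and 86.0 ± 29.6 CPM (0.61, adjusted p = 0.312). Xpo6, the exportin of actin and profilin, was at 218 ± 37.6 and 154 ± 26.6 CPM (-0.50, adjusted p = 0.227). All 6 outer ring genes had a difference above 0, from 0.05 for Nup85 to 0.53 for Nup37 with a median of 0.31 and none called. Xpo5, which exports microRNA precursors, had nearly equal means of 129 ± 56.0 and 128 ± 49.7 CPM but ranged from 68.2 to 201 CPM among RP lines and from 83.6 to 176 CPM among RPM lines.

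With Max added back, most transport receptors and several pore proteins were lower than with empty vector. limma called 24 of the 52 members lower (46.2%), against 25.5% of all genes called lower, and 4 higher (7.69%), against 27.7% of all genes called higher; in either direction 28 of the 52 members and 53.2% of all genes were called. At an unadjusted p under 0.05 were 32 members and 58.9% of all genes. The median log2 change of the members was -0.338, beside -0.002 over all genes, and 40 of the 52 were below 0. In 31 members every addback library lay below every empty vector library, and in 6 every one lay above, where the shares over all genes were 30.2% and 31.7% (61.9% in either direction). These are counts of reads in bulk cells, so fewer cells of a type and less RNA per cell cannot be told apart. A permutation test of 3 against 3 libraries cannot give a p under 0.1. The counts by role that follow are of few genes and stand beside the same shares of all genes.

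**Figure D3:**
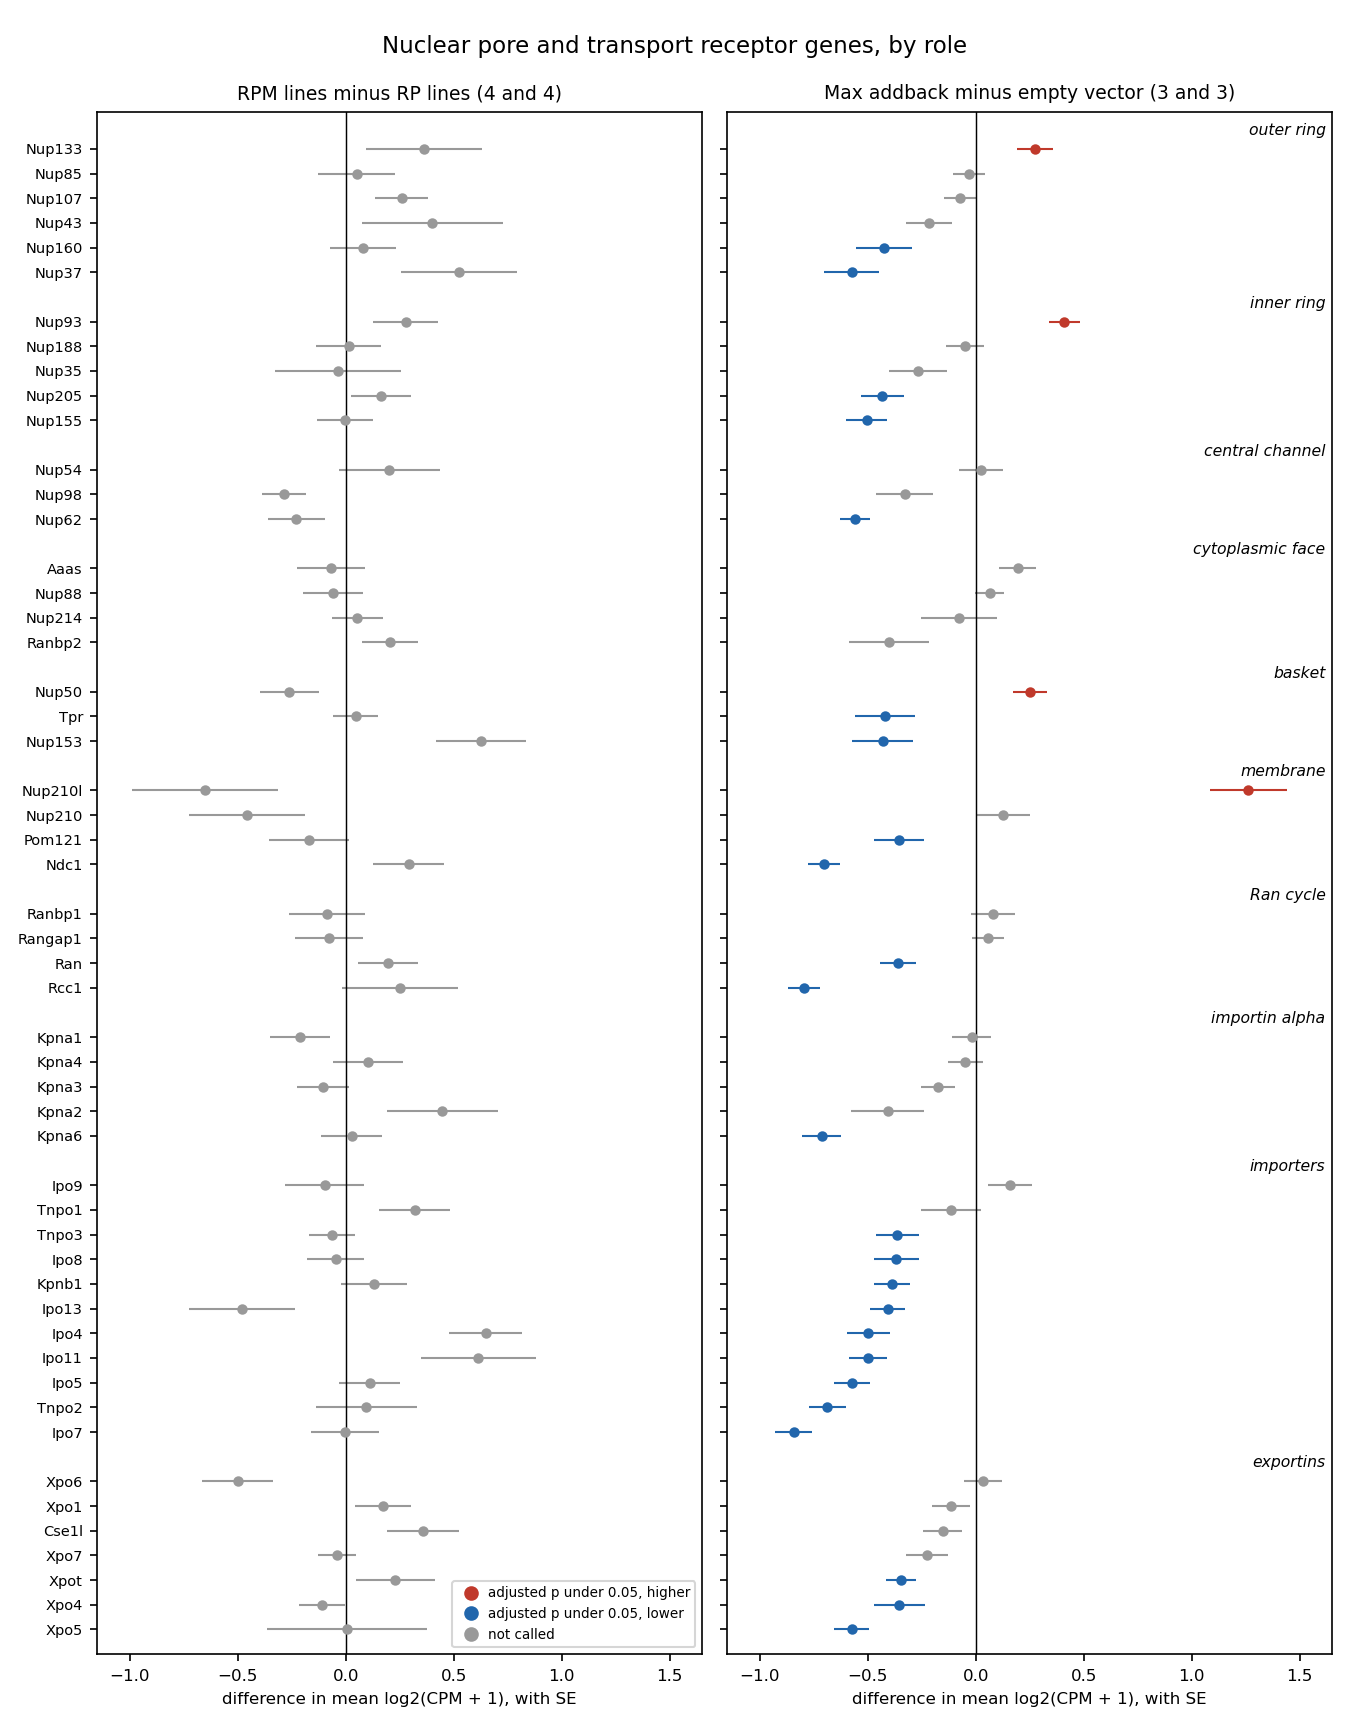
Difference in mean log2(CPM + 1) with its SE for the 52 members by role, in RPM against RP lines (left, 4 and 4 libraries) and in Max addback against empty vector (right, 3 and 3); blue and red mark genes called lower and higher at a limma adjusted p under 0.05. No gene is coloured on the left. On the right 24 are blue, 9 of them among the 11 importers, and 4 are red. Of all genes 25.5% were called lower there and 27.7% higher.

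In the Ran cycle 2 of 4 genes fell. Rcc1, the exchange factor that makes RanGTP, was at 151, 159 and 151 CPM with empty vector and at 82.8, 88.5 and 93.4 CPM with addback. Its groups lay far apart and within each the libraries were close; it fell by 42.6%, or -0.80 ± 0.08 (SE) on the log2 scale (limma adjusted p = 1.45e-05). Ran itself was at 248, 234 and 224 CPM and then at 172, 177 and 200.5 CPM, a log2 change of -0.36 ± 0.08 (adjusted p = 0.00462); its promoter stretch is among those shown above. Ranbp1 (126 ± 5.51 and 134 ± 19.6 CPM) and Rangap1 (308 ± 3.38 and 320.3 ± 17.6 CPM), which act in GTP hydrolysis, were not called.

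Among the 11 importers of the importin beta family 9 fell and 0 rose, beside 25.5% and 27.7% of all genes. Their median log2 change was -0.407. Ipo7, known to import ribosomal proteins and, with importin beta, histone H1, was at 415, 435 and 420.2 CPM with empty vector and at 243, 255 and 212 CPM with addback. It had the most negative change of all members: it fell by 44.2%, or -0.84 ± 0.09 (SE) on the log2 scale (limma adjusted p = 2.4e-05). Tnpo2, a transportin of RNA-binding proteins, was at 202, 195 and 199 CPM and then at 131, 129.9 and 109 CPM (-0.69 ± 0.09, adjusted p = 0.000105). Ipo7 with 1 E-box and Tnpo2 with a pair of them are the importers printed above. Ipo5, which also imports ribosomal proteins, was at 563, 520.0 and 549 CPM and then at 354, 398 and 347 CPM (-0.57 ± 0.08, adjusted p = 0.000287).

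Kpnb1, importin beta, was the most abundant importer per gene length in the lines; it was at 642, 618 and 629.9 CPM with empty vector and at 504, 499 and 443 CPM with addback (-0.39 ± 0.08, limma adjusted p = 0.00304). Ipo4 was at 57.6, 61.7 and 60.0 CPM and then at 37.8, 41.1 and 47.8 CPM (-0.50 ± 0.10, adjusted p = 0.00204). Ipo4 was the single member whose RPM lines all lay above the RP lines and whose addback libraries all lay below the empty vector libraries, a pattern shown by 2.59% of the shared genes. Ipo11 fell by 0.50, Ipo13 by 0.41, Ipo8 by 0.37 and Tnpo3, the importer of SR splicing factors, by 0.36 on the log2 scale. Ipo9, an importer of core histones, was at 299 ± 0.576 and 337 ± 46.2 CPM and Tnpo1 at 373 ± 20.6 and 349 ± 71.1 CPM, and neither was called; without addback replicate 3 Ipo9 was called higher (log2 0.28, adjusted p = 4.14e-05).

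Of the 5 importin alpha genes only Kpna6 was called. It was at 244, 242 and 247 CPM with empty vector and at 158, 161 and 130.2 CPM with addback, groups that lie far apart (log2 -0.71 ± 0.09 SE, limma adjusted p = 0.000107). Kpna3 and Kpna4, which are close relatives of each other, were at 140.1 ± 1.05 and 129 ± 2.89 CPM with empty vector and at 124 ± 10.2 and 125 ± 10.7 CPM with addback. Kpna1 was at 111 ± 3.00 and 109.5 ± 12.2 CPM. Kpna2, at 13.8 ± 1.17 and 10.3 ± 2.44 CPM, missed the threshold (adjusted p = 0.0631).

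Among 7 exportins 3 fell. Xpo5 was at 193, 189.7 and 177 CPM with empty vector and at 134, 124 and 117 CPM with addback (log2 -0.57 ± 0.08 SE, limma adjusted p = 0.000195); the groups did not overlap. Xpot, which exports tRNA, was at 87.5, 87.8 and 88.4 CPM and then at 70.2, 69.5 and 67.1 CPM (-0.35 ± 0.07, adjusted p = 0.00225). Xpo4 was at 83.3 ± 4.18 and 65.5 ± 10.9 CPM (-0.35 ± 0.12, adjusted p = 0.0291). The main protein exporter, Xpo1, was at 477, 490.0 and 489 CPM and then at 467, 477 and 404 CPM and was not called (-0.11, adjusted p = 0.292). Cse1l, which returns importin alpha to the cytoplasm, was at 230.3 ± 13.9 and 207 ± 19.9 CPM (-0.15, adjusted p = 0.176), and Xpo6 and Xpo7 were not called either. Importers, importin alpha genes and exportins together had 13 of 23 called lower (56.5%) and 0 higher, beside 25.5% and 27.7% of all genes.

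**Figure D4:**
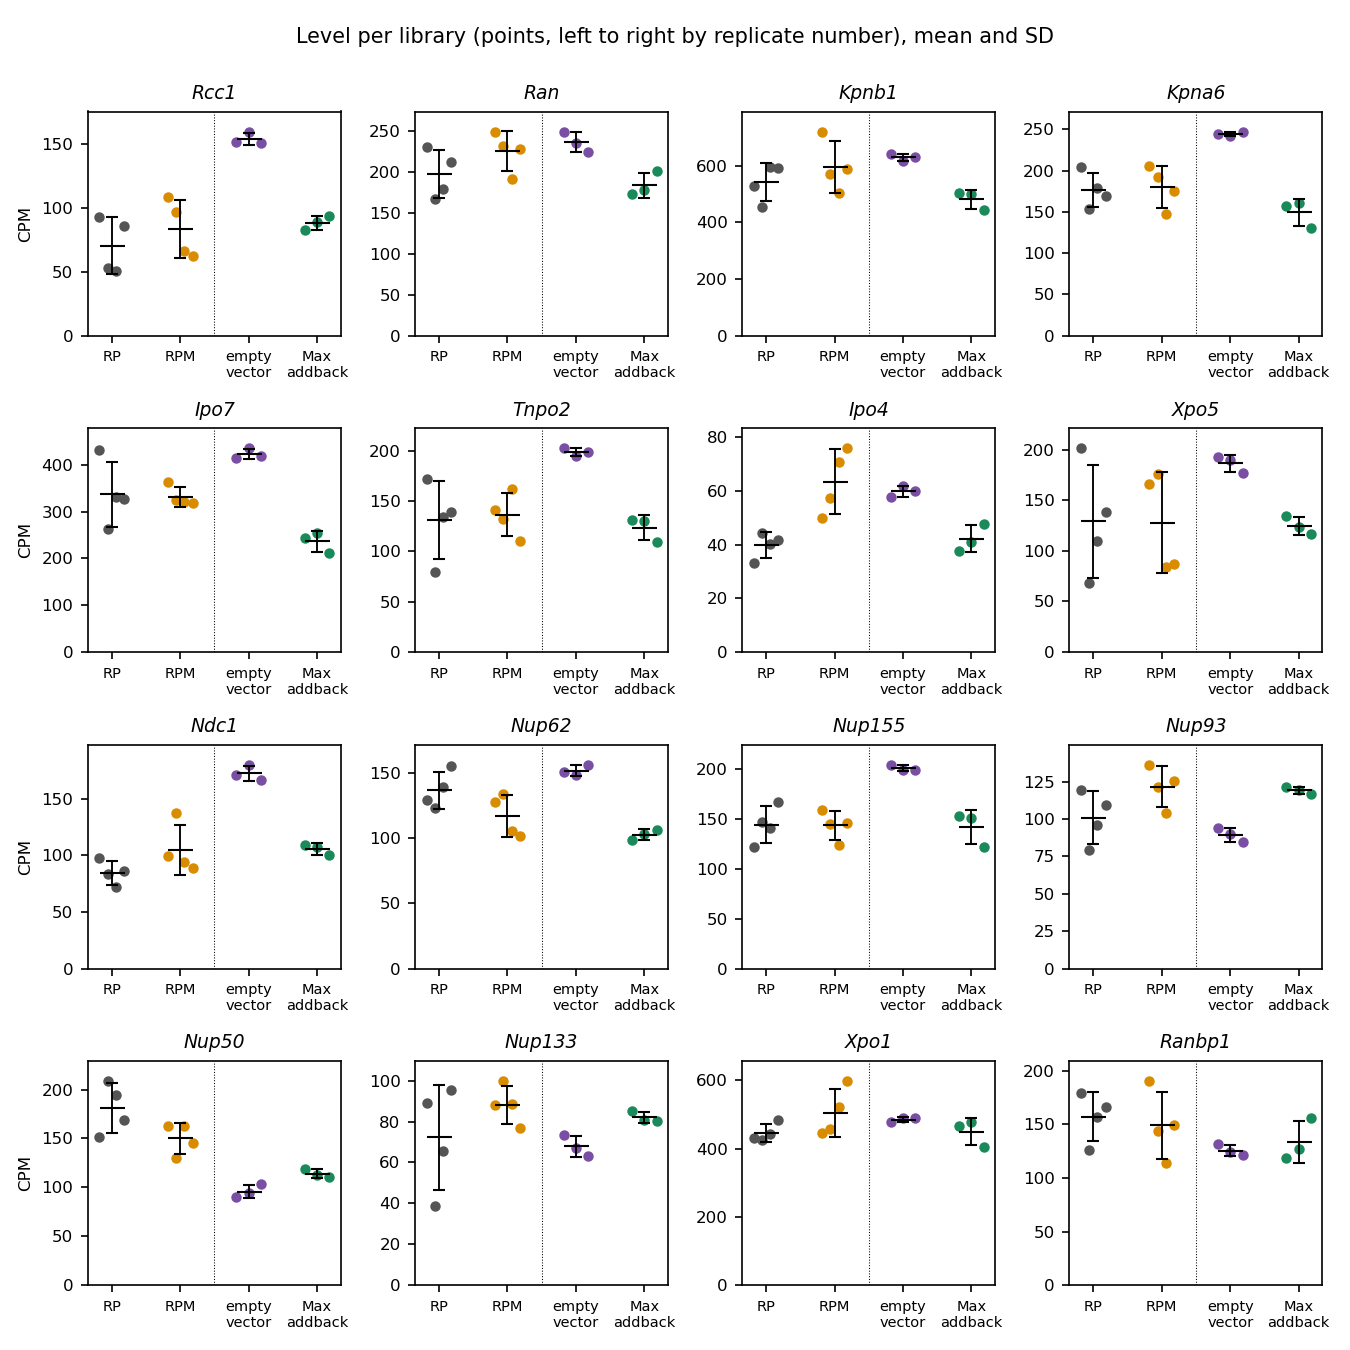
TMM-normalised CPM of 16 members in each of the 14 libraries; points are libraries, ordered from left to right by replicate number, and bars are means and SDs (n = 4 for RP and RPM, n = 3 for empty vector and Max addback; the dotted line separates tables normalised separately). In Rcc1, Kpna6, Ipo7, Tnpo2, Xpo5 and Ndc1 the addback libraries lie below the empty vector libraries, while the RP and RPM lines overlap.

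The 25 pore proteins moved in both directions: 9 fell (36%), 4 rose (16%) and 12 were not called, with a median log2 change of -0.216. Of all genes 25.5% were called lower, 27.7% higher and 53.2% in either direction. In either direction the pore proteins were thus called about as often as all genes. Among the membrane nucleoporins Ndc1, which anchors the pore, was at 171, 180.1 and 167 CPM with empty vector and at 109, 107 and 100.1 CPM with addback, a fall of 0.70 ± 0.07 (SE; limma adjusted p = 2.88e-05). Pom121 was at 135 ± 6.48 and 107 ± 17.6 CPM (-0.35, adjusted p = 0.0266), with 11.9% of its exon bases under exons of Nsun5 on the other strand. Nup210l, a relative of Nup210 known from testis, rose from 2.14, 2.84 and 3.36 CPM to 9.03, 8.59 and 6.55 CPM (1.26 ± 0.18, adjusted p = 0.000219). Its change was the largest upward among the members, and Nup210, at 82.0 ± 1.88 and 90.7 ± 16.6 CPM, was not called.

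Each ring of the scaffold held genes that fell and 1 that rose. In the inner ring Nup155 was at 204, 199 and 199 CPM with empty vector and at 153, 151 and 122 CPM with addback (-0.51 ± 0.09 SE, limma adjusted p = 0.00134), and Nup205 at 351 ± 7.38 and 262 ± 35.6 CPM (-0.43, adjusted p = 0.00512). Nup93, which links the inner ring to the channel proteins, rose from 93.9, 89.9 and 84.7 CPM to 121, 119.7 and 117 CPM (0.41 ± 0.07, adjusted p = 0.00101). Nup188 was at 110.2 ± 7.21 and 106 ± 8.92 CPM and was not called. In the outer ring Nup37 fell from 39.0 ± 5.72 to 25.7 ± 2.48 CPM (-0.57, adjusted p = 0.00368) and Nup160 from 91.6 ± 7.67 to 68.7 ± 12.5 CPM (-0.42, adjusted p = 0.0202), whereas Nup133 rose from 67.9 ± 5.05 to 82.2 ± 2.70 CPM (0.27, adjusted p = 0.0171). Nup107, Nup85 and Nup43 were not called.

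In the channel Nup62 was at 150.4, 148 and 156 CPM with empty vector and at 98.4, 103 and 106 CPM with addback (-0.56 ± 0.07 SE, limma adjusted p = 0.000107), while Nup54, its partner in the channel complex, was at 33.9 ± 3.13 and 34.4 ± 2.12 CPM. All 3 basket genes were called: Nup153 fell from 339.8 ± 8.28 to 256 ± 55.6 CPM (adjusted p = 0.0276) and Tpr, which forms the basket's filaments, from 403 ± 5.83 to 306 ± 64.5 CPM (adjusted p = 0.0284), and Nup50, a cofactor of importin alpha, rose from 95.7 ± 6.97 to 114 ± 4.31 CPM (adjusted p = 0.0231). Addback replicate 3 set much of the spread of the first pair, with Nup153 at 192 and Tpr at 231 CPM, against 285 and 291 and against 340.2 and 346 CPM in the other addback libraries. On the cytoplasmic face 0 of 4 genes were called: Ranbp2 was at 419.9, 431 and 407 CPM and then at 365, 396 and 219 CPM (adjusted p = 0.0926), Nup214 at 85.1 ± 4.48 and 82.9 ± 22.7 CPM, Nup88 at 140.4 ± 2.50 and 147 ± 0.671 CPM and Aaas at 48.3 ± 2.18 and 55.5 ± 3.18 CPM.

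Of these 28 calls 19 were kept in every alternative run. Without empty vector replicate 1 the calls of Ipo8, Nup153, Nup160, Nup50, Pom121, Tnpo3, Tpr and Xpo4 were lost, without replicate 2 those of Nup133, Nup153, Nup50, Pom121, Tpr and Xpo4, and without replicate 3 those of Ipo8, Nup133, Nup153, Pom121, Tpr and Xpo4. Nup50 also lost its call without addback replicate 1 or 2 and Nup133 without addback replicate 1. Without TMM scaling Pom121, Tpr and Xpo4 lost theirs. Leaving out addback replicate 3 gave 28 members lower, with Nup43, Nup98, Ranbp2 and Xpo7 added, and 9 higher, with Aaas, Ipo9, Nup210, Nup214 and Xpo6 added, at a median of -0.212. More genes were called in the whole table too, 4460 lower and 4575 higher of 14056, against 3582 and 3896 with all libraries. Nup214 changed sign there, from -0.08 to 0.17 on the log2 scale (limma adjusted p = 0.0193). Without empty vector replicate 2 or addback replicate 1, 2 were called higher. The authors' deposited table, whose smallest called log2 change was 0.585 in this experiment, calls 6 members lower (Ipo7, Kpna6, Ndc1, Nup37, Rcc1 and Tnpo2) and Nup210l higher, where it calls 13.1% of all genes lower and 18.9% higher. In the authors' deposited table of the lines 0 members are called, where 1.72% of all genes are called higher and 2.47% lower.

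Other properties of the cells moved with the addback. The summed level of 20 proliferation genes was 9574 to 9803 CPM with empty vector and 6675 to 7850 CPM with addback. Much of this fall lay in Mki67 (means of 2308 and 1686 CPM), Top2a (2167 and 1541 CPM) and Rrm2 (1117 and 481 CPM), and Mki67 was not called. The mean log2(CPM + 1) of the 20 genes was 8.218 to 8.274 and then 7.978 to 8.025. Of the 20, limma called 10 lower and 4 higher, beside 25.5% and 27.7% of all genes. The members summed to 9293 to 9473 and 6887 to 8175 CPM. Of 11 C cell and neuroendocrine genes 10 were called higher, and all 5 epithelial genes were, at sums of 73.9 to 82.5 and 440.5 to 503 CPM. The 3 listed fibroblast markers summed to 29.5 to 39.4 CPM with empty vector and 10.2 to 13.1 CPM with addback, a sum carried by Dcn (means of 28.6 and 5.70 CPM); Dcn and Col1a1 were called lower and Pdgfrb higher (0.537 and 5.08 CPM). The Y-linked genes Ddx3y and Eif2s3y were at 157 to 177 and 118 to 120.3 CPM in the empty vector libraries and had no read in any addback library, so the 2 sets of cells differ in more than the Max vector, and the vector and this difference cannot be told apart. The part of these properties in the members' changes was not tested.

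Of the 39 other genes of pore and transport, 38 are in the table of lines and 37 in that of the addback experiment. In the lines 0 of the 38 were called, with a median log2 difference of 0.201 and 30 above 0; 9 had an unadjusted p under 0.05. With addback 11 of 37 fell and 6 rose, with a median of -0.062, beside 25.5% and 27.7% of all genes. Those that fell included Ahctf1, which seeds pore assembly on chromatin (225 ± 10.8 to 149.8 ± 32.6 CPM, log2 -0.61, limma adjusted p = 0.00528), Seh1l of the outer ring (-0.39, adjusted p = 0.00302) and the lamin B receptor Lbr (-0.50, adjusted p = 0.000686). Nxt1, a cofactor of messenger RNA export, rose from 30.3 ± 3.06 to 44.5 ± 9.15 CPM (0.53, adjusted p = 0.0105), as did the THO complex genes Thoc7 and Thoc3, whereas Thoc5 and Thoc6 of that complex fell.

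Whether a member's change differed between the lines and the addback experiment was tested directly. The log2 change from RP to RPM lines was set against that from addback to empty vector, and the second was subtracted from the first. The second change comes from 1 line, so the SE and p of the difference hold no spread of that change between lines. This difference was called by limma for 5 of the 52 members, 1 above 0 and 4 below, against 15% of the shared genes, 8.99% above 0 and 5.99% below. Nup62 differed by -0.79 ± 0.14 (SE; adjusted p = 0.0028): its level was 0.23 lower in RPM than in RP lines and 0.56 higher with empty vector than with addback, on the log2 scale. Ipo7 differed by -0.85 ± 0.18 (adjusted p = 0.0072), with a change of 0.00 in the lines and 0.84 in the experiment, and Kpna6 by -0.69 ± 0.17 (adjusted p = 0.0152), with 0.03 and 0.71. Nup93 differed the other way, by 0.69 ± 0.17 (adjusted p = 0.0157), with 0.28 and -0.41. Ipo13 differed by -0.89 ± 0.26 (adjusted p = 0.0334), with -0.48 and 0.41. Kpna6 and Ipo13 lost the call without RPM replicate 3 and Nup93 and Ipo13 without RPM replicate 4, and 3 members were then called; Ipo13 lost it without any 1 of 8 libraries. For the other 47 members, including Rcc1 (adjusted p = 0.169), no difference between the comparisons was detected.

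The untransduced library of the same line, RPM replicate 2, gives a level to set beside both transduced groups, although the tables were normalised separately and it is a single library. That the line is the same rests on the library names, and the addback libraries lack the Ddx3y and Eif2s3y reads of the empty vector libraries. For 23 of the 24 members that fell, the untransduced library lay between the means, with empty vector above and addback below. Pom121, for which it lay above both, was the exception. The untransduced library was nearer to the addback mean for 8 and nearer to the empty vector mean for 16. Rcc1 was at 96.5 CPM there, against means of 154 with empty vector and 88.2 with addback, and Ipo7 at 325 CPM against 423 and 236. All 4 members that rose with addback were higher in the untransduced library than in either transduced group, as in Nup50 at 129.9 CPM against 95.7 and 114. These counts are of members picked by the addback comparison itself. The same counts were not made over all genes, so they show no trait particular to the members.

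**Figure D5:**
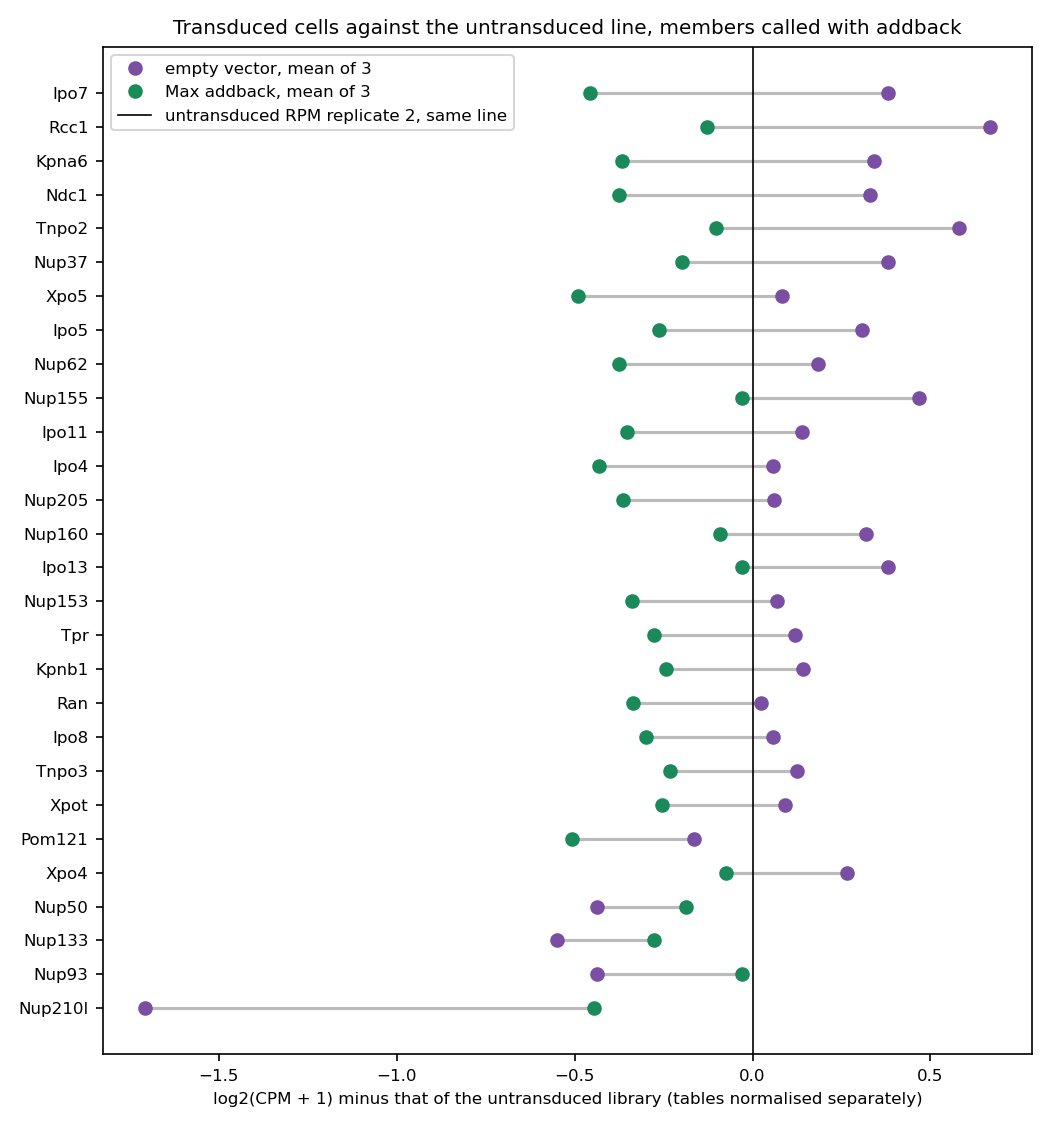
Mean log2(CPM + 1) with empty vector (purple) and Max addback (green), n = 3 each, minus that of the untransduced library of the same line (vertical line at 0), for the 28 members called with addback; the tables were normalised separately. For 23 of the 24 members that fell the points lie on either side of the line, and for the 4 that rose, at the bottom, both lie to its left.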

How the data were processed

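Per the labels' protocols, Trizol and a column kit were used to extract total RNA. Per the submitters' processing notes the tools were bcl2fastq 1.8.4, TopHat2 2.1.0, HTSeq 0.6.1 and edgeR, and the build mm10. For annotation, strand setting and gene filter, nothing is stated in the sources used here; without a stated strand, a gene's reads cannot be told apart from those of an antisense partner. Values deposited by the authors for each gene are, by the file headers, the TMM-normalised CPM signal and RPKM of every library, a log2 fold change, a mean level on the log2 scale, a p-value with its FDR, and a score that gives their call. Each CPM value was a whole multiple of the value of 1 read, within 0.01 read, for 100% of values, so reads were recovered; edgeR on them called 3 genes in the lines and 7430 with addback.

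Members and lists were chosen with earlier results of these data known. The main test was limma 3.58.1 (trend) on log2(CPM + 1), all listed genes, each comparison on its own libraries, two-sided, in R 4.3.3; the difference between comparisons used array weights by group on the 13528 shared genes. Alternatives were a pseudocount of 0.25, a mean of at least 5 CPM, edgeR 4.0.16, DESeq2 1.42.0, scaling without TMM or by DESeq2 size factors, a replicate block and leaving out each library; for the difference, a pseudocount of 0.25, voomWithQualityWeights, the block and leaving out each library. The scripts were tested on simulated data. Named genes were the called members, at most the 25 with the smallest adjusted p, or, where fewer than 10 were called, the 20 with the smallest p, a fixed set of 17 symbols, the extremes of each role and Max; members beyond the rule are given to complete their role group, and the other genes named were chosen after their values were seen. Identifiers were matched to GENCODE vM21 (all 52 members found); copies were sought with blastn 2.17.0 (at least 100 bases at 95% identity). The CPM value of 3 reads bounds counting error only, whereas each SD and SE comes from the spread between libraries.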

Additional observations from a re-analysis of the deposited data

Results flagged for a closer look

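Among the 104 groups of 4 libraries tested (52 members in RP and in RPM lines), 7 held a library far from the other 3 by Dixon's criterion; chance gives about 1 in 20. Tnpo1 was at 309.7 CPM in RP replicate 4, above the other RP lines. Nup43 (47.2 CPM), Nup85 (172.9 CPM) and Ipo7 (363.4 CPM) were high in RPM replicate 1, whose animal identifier also stands on tumours labelled Rb/p53 mutant. Kpna3 (101.3 CPM) and Xpo7 (162.3 CPM) were low in RPM replicate 3. Ipo9 was at 331.7 CPM in RPM replicate 2, below the other RPM lines at 551 to 561 CPM; the empty vector libraries of that same line held 299 to 299.8 CPM in a table normalised separately.

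The difference of the comparisons passed the test of the difference itself for 5 of the 52 members, against 15% of the shared genes. The addback side of that test comes from 1 line. On the log2 scale these were Ipo13 (-0.89), Ipo7 (-0.85), Nup62 (-0.79), Kpna6 (-0.69) and Nup93 (0.69). Ipo13 lost its call without any 1 of 8 libraries, and Kpna6 and Nup93 each lost theirs without 1.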

How the results depend on the processing

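No called value changed its direction under any alternative run; some values near 0 that were not called did, such as that of Xpo5 in the lines. Nup214, not called at -0.08 with addback, was called higher at 0.17 without addback replicate 3. For the genes named by the rule above and the 5 called differences, 1072 single-gene values under alternatives kept their side of the threshold. In this set 32 values lost the call and 11 gained it. Members outside it are not counted, such as Xpo4 with 4 calls lost and Nup98 with 3 gained with addback. In the lines 0 members were called under every alternative except DESeq2, which called 1 (Ipo4, adjusted p = 0.0224). The number of all genes called in the lines, 48, became 3 with edgeR, 657 with DESeq2 and 0 with a replicate block, and 0 to 261 without 1 library, with the highest value without RPM replicate 1; the cause was not tested. Without 1 library, 17 to 28 members were called lower with addback, while all genes called lower ranged from 2846 to 4460 of 14056. Members called higher then ranged from 2 to 9. Without TMM scaling 21 members and 2919 of all genes were called lower with addback. In that run the median of all genes was 0.072 and that of the members -0.258. The members whose change differs between the comparisons numbered 3 to 7 without 1 library, while all genes with such a call numbered 1219 to 2419 of 13528.

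Whether replicate numbers pair the samples is not settled by these data. The correlations of deviations for the same number were all above 0, at 0.402, 0.047, 0.012 and 0.127 in the lines and 0.032, 0.012 and 0.079 in the addback experiment. For different numbers they ran from -0.288 to 0.188 in the lines and from -0.08 to 0.051 in the addback experiment. Not every sample correlated best with its own number. With the replicate block 25 members were called lower and 4 higher with addback, 0 in the lines and 5 in the difference of the comparisons. Depth limits most the members with fewest reads, Kpna2, Nup35 and Nup210l.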
